A study of Mus musculus with 4 samples.

Results

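Anti-Eos peaks that had no anti-Helios summit close by and lay at the ends of protein-coding genes were examined in mouse regulatory T (Treg) cells. A peak of the anti-Eos list was included when its summit, the position of highest signal, had no summit of the anti-Helios list within 100 bp and lay within 1 kb of an annotated start or end of a protein-coding gene on chromosomes 1 to 19, X or Y. The members were thus chosen by measured values, the summit positions of both lists. This rule gave 304 of 1106 anti-Eos peaks (27.5%), with 291 genes as their nearest. They made up 69.6% of the 437 anti-Eos peaks near gene ends, and 36.2% of the 839 anti-Eos peaks without a Helios summit. The other 133 near-end anti-Eos peaks, which had a Helios summit within 100 bp, are called shared sites below. Peaks said below to be without Helios lack only a listed Helios summit within 100 bp, and some of them overlap a Helios peak.

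The series held 4 chromatin immunoprecipitation (ChIP-seq) libraries, 1 each of anti-Eos and anti-Helios from wild-type mice and from mice with floxed Eos and Foxp3-Cre, so that Eos is deleted in cells that express Foxp3. Only the 2 wild-type peak lists were used here, and the knockout libraries were not analysed here. For all libraries, Treg cells were purified from spleen by a kit that selects CD4+CD25+ cells and cross-linked with formaldehyde, and the antibodies were anti-Eos 18H2, raised in the study, and anti-Helios D8W4X. The kit selects on surface proteins that activated conventional T cells can also carry, and the peak lists cannot show the purity of the cells. The labels do not say how many mice gave the cells, and since each group was a single library, no value here has a replicate error. The anti-Helios list held 469 peaks, none with a -log10 q below 2.24, so a place without a Helios summit is one where none was listed, not one shown to lack Helios. Which control library the deposited folds refer to is not given in these sources. Had the matching knockout library served as control, the folds would express a difference between genotypes, and a missing Helios peak would say still less about Helios.

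Eos, encoded by Ikzf4, and Helios, encoded by Ikzf2, are Ikaros family transcription factors, abundant in Treg cells. Members of this family bind DNA through zinc fingers that contact a short core, GGGAA, and recruit complexes that modify chromatin. They can form dimers with each other through zinc fingers at the other end of the protein. Promoters of active genes are open, and many carry sites of the ETS family, whose core is GGAA and whose sites at promoters are often written CCGGAA.

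The places are shown first by their DNA. The promoter sequences of RefSeq (GRCm38.p6) cover 250 bases before and 50 after an annotated gene start, and 145 of the 304 summits fell in such a window. Below are stretches of up to 50 bases on either side of a summit, cut to the part that lies before the start and outside protein-coding genes, read 5′ to 3′ on the strand of the gene (in brackets). Within each kind, the stretches with the highest fold among the longer ones were taken. Capitals mark GGGAA and CCGGAA on either strand (TTCCC and TTCCGG are their reverse complements), and the summit is base 51 of each stretch. Stretches with both cores come first, since they show how close the 2 cores can lie.
Nsmce1, chr7:125491553-125491653 (-): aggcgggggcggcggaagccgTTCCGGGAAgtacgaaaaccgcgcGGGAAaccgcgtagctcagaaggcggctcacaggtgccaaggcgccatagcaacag
Lypla2, chr4:135972613-135972705 (-): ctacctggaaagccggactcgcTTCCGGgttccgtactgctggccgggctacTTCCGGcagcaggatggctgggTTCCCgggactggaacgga
Txn2, chr15:77929104-77929204 (-): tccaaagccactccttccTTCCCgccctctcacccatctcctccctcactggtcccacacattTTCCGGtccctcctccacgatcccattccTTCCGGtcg
Rbm45, chr2:76369871-76369958 (+): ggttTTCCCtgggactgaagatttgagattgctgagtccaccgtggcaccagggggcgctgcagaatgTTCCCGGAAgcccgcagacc

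At Nsmce1, which encodes a subunit of the SMC5/6 DNA repair complex, the cores overlapped each other in a single run. The same was seen at Rbm45, an RNA-binding protein gene. The next stretches had the highest folds among those with the Ikaros core alone. They belong to Txlng, to the small heat shock protein gene Hspb9 and to Nfat5, a factor of the response to osmotic stress.
Txlng, chrX:162829583-162829683 (-): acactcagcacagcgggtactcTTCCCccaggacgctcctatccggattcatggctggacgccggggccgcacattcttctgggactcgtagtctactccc
Hspb9, chr11:100713834-100713928 (+): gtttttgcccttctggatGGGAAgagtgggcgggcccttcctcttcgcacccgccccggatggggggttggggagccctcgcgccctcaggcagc
Nfat5, chr8:107293274-107293374 (+): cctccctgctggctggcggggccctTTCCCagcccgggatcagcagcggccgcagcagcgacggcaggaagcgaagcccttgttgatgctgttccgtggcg

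Those with the ETS core alone were led by Smg8, which acts in nonsense-mediated mRNA decay, by Tnfrsf18, which encodes the Treg surface receptor GITR, and by the receptor gene Lrp10.
Smg8, chr11:87086795-87086895 (-): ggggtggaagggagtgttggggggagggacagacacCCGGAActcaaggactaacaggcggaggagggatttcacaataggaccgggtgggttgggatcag
Tnfrsf18, chr4:156026227-156026321 (+): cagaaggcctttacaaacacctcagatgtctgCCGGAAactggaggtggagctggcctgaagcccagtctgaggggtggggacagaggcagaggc
Lrp10, chr14:54464015-54464115 (+): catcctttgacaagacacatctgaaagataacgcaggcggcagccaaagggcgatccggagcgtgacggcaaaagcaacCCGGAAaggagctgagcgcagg

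Other stretches held neither core. Timm13, a chaperone of mitochondrial protein import, is shown because its peak had the second highest fold of all 304. Rasal3, a Ras GTPase-activating protein gene of lymphocytes, Coro1a, an actin regulator that T cells need to leave lymphoid organs, and Zfp36l1, an mRNA decay factor, are shown as genes of the T cell and mRNA decay lists below.
Timm13, chr10:80900970-80901057 (-): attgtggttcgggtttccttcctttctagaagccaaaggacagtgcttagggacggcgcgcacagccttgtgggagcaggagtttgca
Rasal3, chr17:32403605-32403705 (-): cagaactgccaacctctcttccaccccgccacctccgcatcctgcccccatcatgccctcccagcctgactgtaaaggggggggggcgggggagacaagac
Coro1a, chr7:126704817-126704912 (-): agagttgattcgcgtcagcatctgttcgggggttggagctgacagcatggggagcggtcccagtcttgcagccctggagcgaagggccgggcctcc
Zfp36l1, chr12:80113108-80113208 (-): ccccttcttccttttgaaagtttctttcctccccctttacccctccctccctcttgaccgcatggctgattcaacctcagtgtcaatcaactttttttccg

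For comparison, the 3 shared sites with the highest fold that met the same conditions were at Phf23, Rps19 and Chmp5.
Phf23, chr11:69995562-69995662 (+): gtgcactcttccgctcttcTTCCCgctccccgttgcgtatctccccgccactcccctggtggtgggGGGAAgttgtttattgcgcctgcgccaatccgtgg
Rps19, chr7:24884409-24884509 (+): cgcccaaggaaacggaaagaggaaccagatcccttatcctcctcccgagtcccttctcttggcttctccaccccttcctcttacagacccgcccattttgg
Chmp5, chr4:40948404-40948504 (+): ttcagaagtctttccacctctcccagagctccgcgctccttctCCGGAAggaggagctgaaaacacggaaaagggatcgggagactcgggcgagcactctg

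The folds, which are the authors' own value for each peak over its background, were moderate. The 304 peaks had a lowest fold of 3.67, a median of 7.20 (interquartile range 6.06 to 8.75) and a highest of 15.5. Shared sites ranged from 3.92 to 35.7 with a median of 9.78 (7.72 to 12.5), and 14 of them had a fold above the highest of the 304. Anti-Eos peaks without Helios elsewhere inside genes had a median of 6.88 and those outside genes 6.98. These values are a description and were not tested, since the rule itself used summits of both lists.

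The number of fragments at each summit, worked out from the fold and p-value in the list, had a median of 13 (range 7 to 32) for the 304 peaks and 20 (range 9 to 58) for shared sites. In the anti-Eos list as a whole, 19 of the 100 peaks with the highest fold were among the 304 and 40 were shared sites. A -log10 q of at least 5 was reached by 223 of the 304 (73.4%) and by 122 of the 133 shared sites (91.7%). The peaks without Helios thus had lower folds in the median than the shared ones, with overlapping ranges, and 29 of them rested on fewer than 10 fragments. The part of this lower signal in the absence of a listed Helios summit was not tested.

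**Figure D1:**
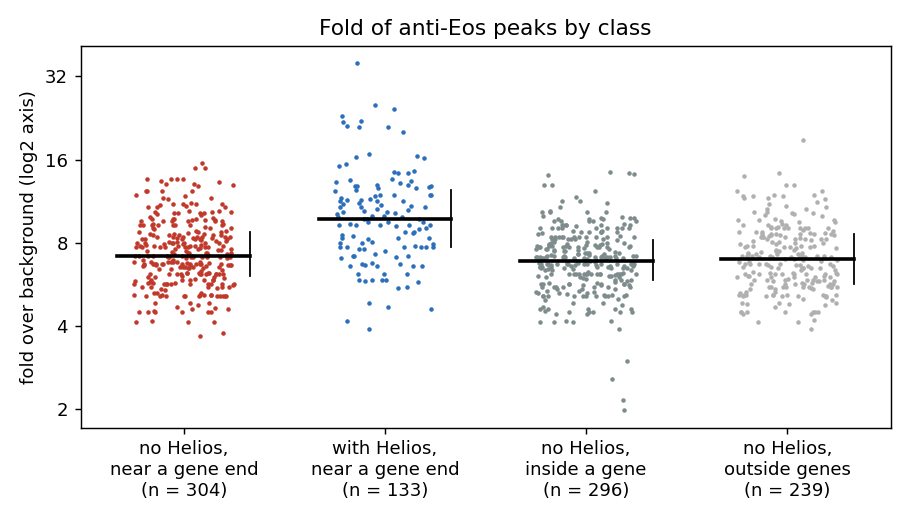
Fold over background of each anti-Eos peak (points, log2 axis) by class, with the median (thick line) and the interquartile range (thin line). The 304 near-end peaks without Helios have a median of 7.20, close to the 2 other classes without Helios (6.88 and 6.98) and below the shared near-end sites (9.78).

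The highest of the 304 lay at the start of Ptp4a2, a protein tyrosine phosphatase gene (chromosome 4, 129810959 to 129811280). Its fold was 15.5 from 23 fragments, and its summit stood 4 bp from the bound at the gene's start, with the nearest Helios summit 226010 bp away. Timm13 followed (chromosome 10, 80900847 to 80901109), with a fold of 14.9 from 22 fragments, 38 bp before the gene and with an end of the lamin gene Lmnb2 also within 1 kb. The peak at Rdm1 (chromosome 11, 101627391 to 101627685, fold 14.9) had its summit inside a protein-coding gene, 334 bp from an end of Rdm1. None of the 304 was among the 28 highest peaks of the whole list, since Ptp4a2 ranked 29.

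Folds of 13.6 were found at Tes, a focal adhesion protein gene, at Med14, a subunit of the Mediator complex that links transcription factors to RNA polymerase II, at Rgs1, and at the deacetylase gene Sirt6. Rgs1 encodes a regulator of G protein signalling that dampens chemokine responses in lymphocytes, and its summit stood 32 bp outside the gene (chromosome 1, 144248973 to 144249247, 20 fragments). The rest of the 15 highest were Spag7 (13.4), Arhgap11a (13.3), the tetraspanin gene Tspan32 (13.1), the succinate dehydrogenase subunit gene Sdhb (13.1), Txlng (13.0), the RNA polymerase II subunit gene Polr2i (12.8), Arhgap30 (12.3) and the mitochondrial ribosomal protein gene Mrpl30 (12.3). At Spag7 a Helios summit lay 21846 bp away, the closest among these 15.

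The lowest -log10 q of the 304 was 2.08, at Zfp13 (fold 4.66, 7 fragments). Klf2, Kmt2e, Rasgrp2, Sp3 and Tspyl4 followed, tied at 2.16. Counting error at such places is wide. For the 11 fragments at Klf2 the exact 95% Poisson interval was 5.49 to 19.7, and for the 23 at Ptp4a2 it was 14.6 to 34.5.

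Most of these summits lay at gene starts. Distances to a gene are to its outermost annotated bounds, unless a start of the promoter table is named. Strand was known from the RefSeq promoter table for the nearest gene of 254 of the 304, and in 238 of them (93.7%, 95% Wilson interval 90.0 to 96.1%) the nearest end was the start of the gene. In 16 it was the far end. For shared sites 103 of 105 were at a start (98.1%, 93.3 to 99.5%). Positions of summits against gene ends and against each other were used by the rule, so these and the other position values are given as a description, with no test. Of the 304 summits, 156 lay inside a protein-coding gene and 148 outside. Exons, introns and untranslated regions were not assigned, since the gene table holds only gene bounds.

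Against all annotated starts of the promoter table, 236 of the 304 summits lay within 1 kb of one. Of these, 151 (64.0%) lay before the start, and the median position was -45.5 bp (negative is before the start), with quartiles at -176 and 33.3 bp. Shared sites had 68 of 101 before the start (67.3%), a median of -47 bp and quartiles at -140 and 25 bp, so both medians stood within 50 bp before a start. Within 250 bp either side were 174 of 236 (73.7%) and 89 of 101 (88.1%), a difference seen in the values and not tested.

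**Figure D2:**
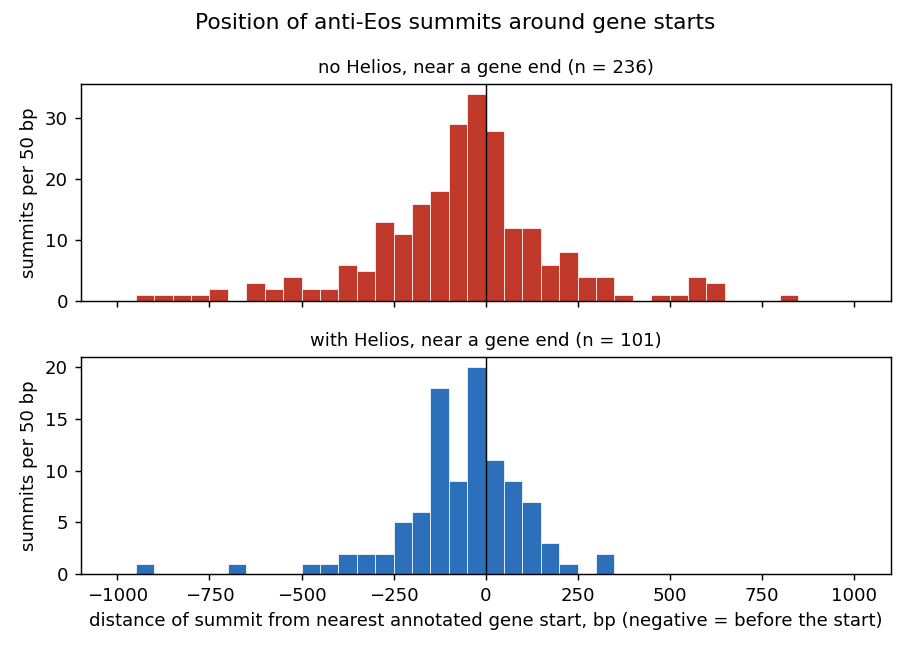
Number of anti-Eos summits per 50 bp against the distance to the nearest annotated gene start (negative is before the start), for the 236 near-end peaks without Helios that lay within 1 kb of one (top) and the 101 shared sites (bottom). Both peak just before the start, with medians of -45.5 and -47 bp.

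Summits within 100 bp of the gene end made up 124 of 304 (40.8%, Wilson interval 35.4 to 46.4%) and 65 of 133 shared sites (48.9%, 40.5 to 57.3%). Ends of 2 or more protein-coding genes, whether starts or far ends, lay within 1 kb of 50 summits (16.4%) against 31 shared ones (23.3%). Timm13 with Lmnb2, Polr2i with Tbcb, Sirt6 with Ankrd24, Arhgap30 with Nectin4 and Mrpl30 with Mitd1 were such pairs. Which way the genes of a pair run was not compared, so they are not shown to share a promoter. Another anti-Eos summit stood within 10 kb of 65 of the 304 (21.4%) and of 22 shared sites (16.5%). The direction of that difference turned, to -11.0 points, when a Helios summit within 1000 bp counted as shared.

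The 16 summits nearest to the far end of a gene were led by B4galnt4 (fold 11.0, 160 bp), Tmem107 (10.3, 248 bp), Tssk6 (9.60, 216 bp) and Vamp1 (9.60, 30 bp). Junb, a subunit of the AP-1 factor, had its peak inside the gene 735 bp from the far end (fold 5.95, 10 fragments). Junb also held a shared site of higher fold, 87 bp from its start (9.26, 17 fragments). The summit at Gpr183, a chemotactic receptor for oxysterols, stood 674 bp from the far end (fold 6.22, 12 fragments). The class holds for the nearest protein-coding gene only. At the uncharacterised gene LOC115486880 the summit also lay at -26 bp from a start of Psme3ip1.

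The distance to Helios varied widely. In 257 of the 304 (84.5%) the nearest listed Helios summit was more than 10 kb away. In 36 it lay within 1 kb, in 15 within 250 bp, and 18 peaks overlapped a Helios peak although the summits stood apart. The places just past the limit of 100 bp were at Lat (101 bp), Oard1 (102 bp), Gm13286 (106 bp) and Arid1a (112 bp). Just inside it, and so counted as shared, were Ccdc88c (99 bp), Amz2 (93 bp) and Lnpep (84 bp). Each of these anti-Eos peaks on either side of the limit overlapped a Helios peak. The other limit was met by Trerf1 (996 bp), Tox (934 bp), Gm40469 (912 bp) and Cd2 (871 bp) from inside, and by Rap1a (1005 bp), Gm8369 (1031 bp), Tedc1 (1046 bp) and Zfp36 (1116 bp) from outside.

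Some genes had summits of the 2 antibodies side by side. At Lat, the adaptor on which T cell receptor signals converge, the anti-Eos peak (chromosome 7, 126369492 to 126369716, fold 7.20, 13 fragments) and the Helios peak (126369452 to 126369632, fold 8.19) overlapped, with the Eos summit 62 bp from the gene start. At Kcnn4, a calcium-activated potassium channel gene, the anti-Eos summit with a fold of 8.99 stood 181 bp from a Helios summit whose fold was 9.41. At Pik3r1, the regulatory subunit gene of PI3-kinase, the distance was 161 bp and the folds were 6.17 and 9.96.

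At Sypl and at Lasp1 a Helios peak lay with its summit between a pair of anti-Eos summits. The anti-Eos folds were 7.13 and 7.87 at Sypl, 405 and 314 bp from the Helios summit, and 8.02 and 6.81 at Lasp1, 372 and 263 bp from it. Socs3, an inhibitor of cytokine signalling, had a fold of 8.23 with a Helios summit 644 bp away (fold 6.77).

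A gene counts below when it is the nearest gene of 1 of the 304 peaks. Over all 21887 protein-coding genes this held for 291 (1.33%), and list counts are set beside that share. Taken over the 7 lists of T cell genes, 19 of 186 genes (10.2%, Wilson interval 6.64 to 15.4%) had such a peak, and 9 had a shared site near an end. All genes, silent ones included, are in that background, so the share of a list of genes active in T cells is not compared with other active genes. The lists were chosen with earlier results of these data known, and no list was tested. When anti-Eos peaks had to reach a -log10 q of 5, Treg core genes stood at 3.23%, effector genes at 3.57%, homing genes at 4.35% and the Ikaros family at 0, within or below the 1.01 to 4.55% of the 16 general lists under that threshold. T cell receptor signalling genes then stood at 7.14%, and interleukin-2 and STAT5 genes and T cell transcription factors at 10% each, on 2 to 4 genes per list. The median fold of the peaks at those 19 genes was 6.22, against 7.20 for all 304.

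Of the 40 T cell transcription factor genes, 6 (15%) carried a peak. The highest was at Bhlhe40 (fold 9.25, 15 fragments), which encodes a repressor induced by activation. Nfkbia, the inhibitor of NF-κB that is itself induced by NF-κB, had a fold of 7.90 at 242 bp inside its start. The NF-κB subunit gene Relb (7.77, 795 bp from an end) and Tox (7.36, 934 bp from an end) followed. Junb (5.95) and Klf2 (4.16, 133 bp inside its start) were lower. Klf2 drives expression of the receptors that let T cells recirculate. With gene ends taken within 500 bp, 3 of these genes counted.

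T cell receptor signalling genes had a peak at 4 of 42 (9.52%). Besides Lat these were Malt1, a protease that activates NF-κB (fold 6.84, 89 bp from an end), Rasal3 (6.20, 73 bp before its start) and the adhesion receptor gene Cd2 (6.17, 871 bp outside the gene). The same number of genes, 4, had a shared site, among them Cd3d, Zap70 and Rasal3. Rasal3 counts in both groups because it carried peaks of both kinds, as 11 genes did among all those nearest to a peak. With a Helios limit of 1000 bp, 2 of the 42 genes counted in place of 4.

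Treg core genes had a peak at 3 of 31 (9.68%) and no shared site near an end. The strongest was at Tnfrsf18 (chromosome 4, 156026177 to 156026359, fold 8.51, 14 fragments), 45 bp before its start, with the nearest Helios summit 3838 bp away. Izumo1r, which encodes folate receptor 4 of Treg cells, had a fold of 5.75 on 8 fragments, 261 bp inside the bound at its start. Ikzf2, the gene of Helios itself, had a fold of 4.50 on 12 fragments, 168 bp from an end, and was the only one of the 5 Ikaros family genes with a peak of this kind. Only Tnfrsf18 of these 3 genes reached a -log10 q of 5 (9.28, against 3.76 and 2.84).

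In the list for interleukin-2 and STAT5 signalling, which sustains Treg cells, 2 of 20 genes (10%) had a peak, and both encode feedback inhibitors of the SOCS family. They were Socs3 (8.23) and Cish (fold 5.48 on 20 fragments, 115 bp inside its start). With a Helios limit of 1000 bp, 1 of the 20 genes counted. Effector T helper genes had 2 of 28 (7.14%), the neighbouring cytokine genes Tnf and Lta. The peak at Tnf (chromosome 17, 35201751 to 35202090) had the highest fold of any T cell list, 11.5 on 17 fragments, with its summit 9 bp inside the start and a Helios summit 3402 bp away. That at Lta had a fold of 5.15 on 9 fragments with a Helios summit 648 bp away, and Lta also held a shared site. Of this list 1 gene counted, Tnf, with a -log10 q of at least 5, with gene ends within 500 bp or with a Helios limit of 1000 bp. Homing genes had 2 of 23 (8.70%), Gpr183 (6.22) and Coro1a (5.62 on 10 fragments, 46 bp before its start). That count was 1 with gene ends within 500 bp or when anti-Eos peaks had to reach a -log10 q of 5.

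The 16 lists of general cell functions were closer to the background, with shares of 1.01 to 5.19%. Chromatin regulators and corepressors had the highest of these, 4 of 77 genes. With a -log10 q of at least 5, 2 of these counted. The 4 were the acetyltransferase genes Ep300 (9.26, 813 bp from its start) and Kat7 (4.85), the chromatin remodelling subunit gene Arid1a (7.38 and 4.85) and Kmt2e (4.16). Of 44 mRNA decay genes 2 had a peak (4.55%), Zfp36l1 (10.3 and 9.14, on either side of its start) and Lsm4 (6.57). Splicing genes had 4 of 123 (3.25%), with folds of 5.66 to 6.79 at Rbm45, Lsm4, Hnrnpf and Sf3b2.

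Genes of autophagy and endosomal trafficking had 6 of 161 (3.73%), of which 4 encode Rab GTPases that direct vesicle traffic: Rab8a (9.60), Rab5a (8.43), Rab12 (7.27) and Rab33b (5.20). Ribosomal protein genes had 2 of 78 (2.56%), among them Rps19 (9.26). The peak at Rps19 stood 505 bp before the start and 306 bp from the summit of the Helios peak that it overlapped. Mitochondrial ribosomal protein genes had the same share, with Mrpl30 (12.3) and Mrpl52 (12.3). Oxidative phosphorylation genes had 3 of 108 (2.78%), Sdhb (13.1) and the subunit or assembly genes Ndufs4 (7.07) and Cox17 (6.58). Polr2i (12.8) was the only one of 40 Integrator and RNA polymerase II genes and Med14 (13.6) the only one of 73 Mediator and general transcription factor genes. Cell cycle and replication genes had 1 of 99 (1.01%), Ccnd2, and ubiquitin conjugation genes 4 of 250 (1.60%), shares at the background.

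No such peak stood at any of the 64 markers of other cells in the spleen, which covered the B, myeloid, CD8 and NK, erythroid and stromal or endothelial lineages (0 of 64). With 3 counts as the limit that a count of 0 allows, that leaves a share of up to 4.69%, above the 1.33% of all genes. The count is therefore too small to set these markers apart from other genes.

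**Figure D3:**
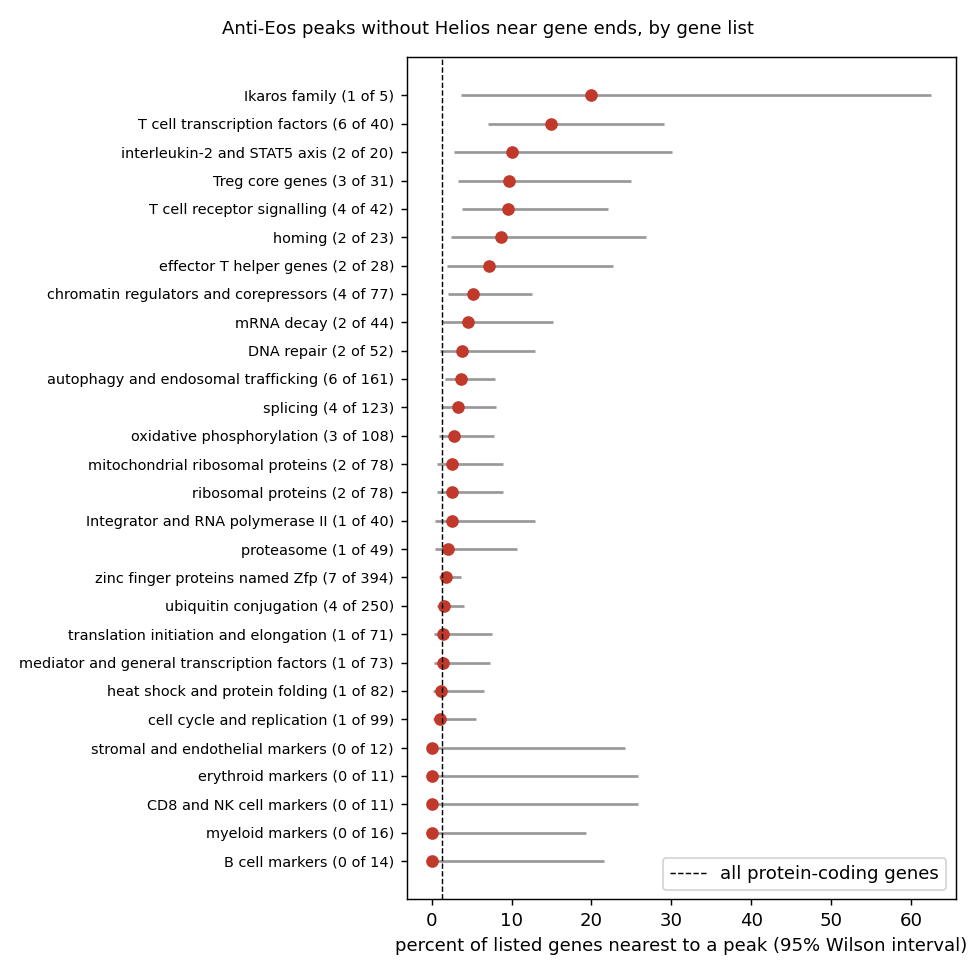
Percent of the genes of each list that were the nearest gene of an anti-Eos peak without Helios near a gene end (points, with 95% Wilson intervals), and the 1.33% of all protein-coding genes (dashed line). Lists were chosen with earlier results of these data known. The 7 T cell lists lie at 7.14% and above, on 1 to 6 genes each (4 of them at 4.35% or below when anti-Eos peaks had to reach a -log10 q of 5), the 16 general lists at 1.01 to 5.19% and the 5 marker lists at 0.

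A further family was chosen after the peaks were seen, so its counts are descriptions only. The GIMAP genes, a cluster of GTPases that support survival of lymphocytes, had a peak at 4 of 8, beside 1.33% of all protein-coding genes. When anti-Eos peaks had to reach a -log10 q of 5, 3 of the 8 counted. Gimap1 had a fold of 9.59 (16 fragments, 8 bp inside its start), Gimap9 8.62, Gimap3 7.66 and Gimap7 5.46, all on chromosome 6 between 48676250 and 48770835. All 4 summits lay within 175 bp of their gene starts and inside the genes, and the nearest Helios summit was 5978 bp from that of Gimap1.

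Some genes carried more than 1 of the 304 peaks, 12 in all. Vim, the gene of the intermediate filament protein vimentin, had 3, with summits 280 and 98 bp before its start and 586 bp after it and folds of 7.20, 7.11 and 5.88. Txnip, an inhibitor of glucose uptake and of thioredoxin, had 2 before its start (780 and 165 bp, folds 8.31 and 7.72). Both peaks of Zfp36l1 lay within 145 bp of its start. At Tspan32 the folds were 9.35 and 13.1, at Trex1, a DNA exonuclease gene, 9.26 and 6.69, and at the cyclin gene Ccnd2 9.94 and 9.74. Arid1a, Gfpt1, Lasp1, Milr1, Osm and Sypl had 2 each. Summits of one gene share chromatin and are not independent.

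The last comparison concerned sequence features of the promoters. CpG dinucleotides are depleted in most of the genome but kept at many promoters. Of the 145 windows that held 1 of the 304 summits, 102 (70.3%, Wilson interval 62.5 to 77.2%) had an observed over expected CpG ratio above 0.6, against 60 of 70 (85.7%, 75.7 to 92.1%) for shared sites and 35.8% of all 32851 windows. The difference of -15.4 points (Newcombe interval -25.5 to -3.22, Fisher's exact p = 0.0176) did not pass over the 14 features compared, position features included (adjusted p = 0.246), nor over the 10 sequence features alone (adjusted p = 0.176). These two-sided tests treat each place as independent and describe these 2 libraries only. The median ratio was 0.764, 0.839 and 0.384, and the median GC content 60.3%, 63.5% and 52.7%.

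The Ikaros core GGGAA occurred in 111 of the 145 windows (76.6%, Wilson interval 69.0 to 82.7%), in 57 of 70 shared windows (81.4%) and in 62.7% of all windows. CCGGAA occurred in 65 (44.8%, 37.0 to 53.0%), in 31 shared windows (44.3%) and in 14.9% of all. Among CpG-rich windows alone, the share with CCGGAA was 51.0% (52 of 102, interval 41.4 to 60.5%) against 29.8% of all 11756 such windows, and the share with GGGAA 80.4% (82 of 102, 71.6 to 86.9%) against 63.0%. The reference windows were not selected for genes active in Treg cells, so these shares are not compared with those of other active promoters. Both cores stood together in 51 of the 145 windows and neither in 20.

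Neither core differed detectably between the 2 kinds of near-end sites. The difference was -4.88 points for GGGAA (-15.4 to 7.43, Fisher's exact p = 0.484, adjusted p = 0.677) and 0.54 points for CCGGAA (-13.5 to 14.2, Fisher's exact p = 1, adjusted p = 1), and these intervals leave room for differences of over 10 points either way for CCGGAA. The minimal core GGAA, which both longer cores contain, was in 145 of 145 and 69 of 70 windows, and in 96.0% of all.

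The other motifs were searched in the same way on both strands. The site of Sp and Klf factors, CCCGCC, was in 80 of 145 windows (55.2%) and 48 of 70 shared ones (68.6%; difference -13.4 points, -26.0 to 0.61, Fisher's exact p = 0.0752, adjusted p = 0.386). Among all windows it was in 35.3%, and among CpG-rich ones in 71.4%, so the share in the 145 windows lay between these. The NF-Y site CCAAT was in 31.0% and 41.4%, against 37.4% of all windows. The E-box CACGTG was in 13.1% and 11.4%, against 7.15% of all windows. TGACGTCA of CREB and ATF factors was in 5.52% and 1.43%, against 1.79% of all, and the NRF1 site in 3.45% and 1.43%, against 0.971%. The AP-1 site TGAGTCA was in 2.07% and 0%, where 0 of 70 windows allows up to 5.20% by the Wilson interval, against 5.20% of all windows. None of these differed after adjustment (Fisher's exact test, adjusted p of 0.386 to 0.892).

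**Figure D4:**
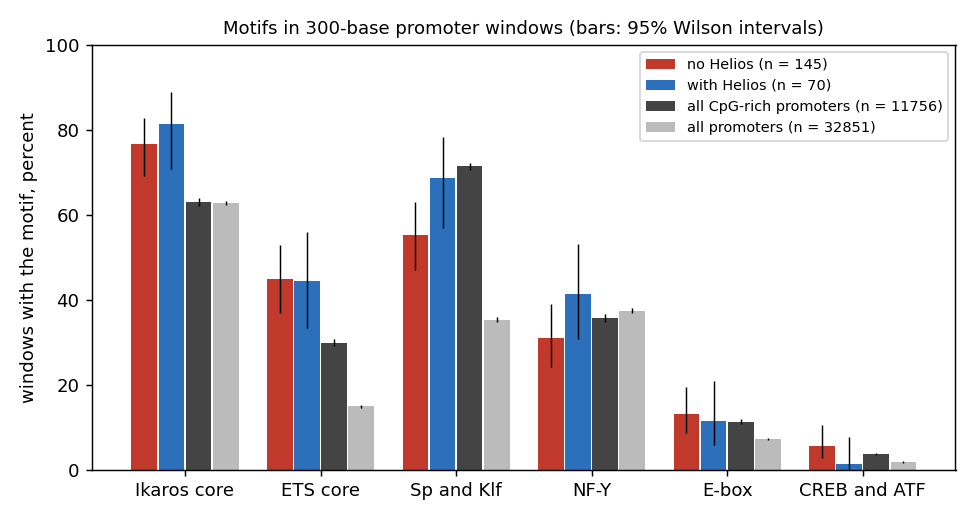
Percent of 300-base promoter windows with each of 6 motifs on either strand (bars, with 95% Wilson intervals) for near-end anti-Eos peaks without Helios, shared sites, all CpG-rich windows and all windows. The Ikaros and ETS cores reach 76.6% and 44.8% at peaks without Helios and 81.4% and 44.3% at shared sites. All windows have 62.7% and 14.9%, and CpG-rich ones 63.0% and 29.8%, and neither set was selected for active genes.

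In the windows without Helios both cores were more frequent within 25 bp of the summit than at 150 to 200 bp. The intervals at these distances did not overlap. Within 25 bp of the 145 summits, GGGAA occurred at 6.96 per 1000 positions (Wilson interval 5.26 to 9.22), and 150 to 200 bp away at 2.84 (1.77 to 4.54). CCGGAA stood at 4.56 (3.23 to 6.43) and 0.84 (0.36 to 1.97) over the same distances. At 75 to 100 bp the intervals overlapped those within 25 bp (2.38 to 5.79 for GGGAA and 1.64 to 4.61 for CCGGAA). Occurrences in one window are not independent, and no test was made. At shared sites GGGAA stood at 11.2 (8.18 to 15.3) within 25 bp and 4.63 (2.71 to 7.91) at 150 to 200 bp, again without overlap. There CCGGAA stood at 3.18 (1.78 to 5.69) and 1.80 (0.77 to 4.20), and only for this core did the intervals overlap. The minimal core GGAA, which both contain, fell likewise, from 24.4 (21.1 to 28.3) to 11.4 (8.97 to 14.4) at the 145 summits. At shared sites GGAA went from 26.9 (22.0 to 32.8) to 12.1 (8.68 to 16.9). The fall is thus not particular to the 2 longer cores. In 63 of the 145 (43.4%) GGGAA lay within 50 bp of the summit, and in 39 (26.9%) CCGGAA did, against 55.7% and 27.1% of shared windows. The summits gather at gene starts, so nearness to the summit and nearness to the start cannot be told apart here, and a match of letters does not show that a factor is bound.

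**Figure D5:**
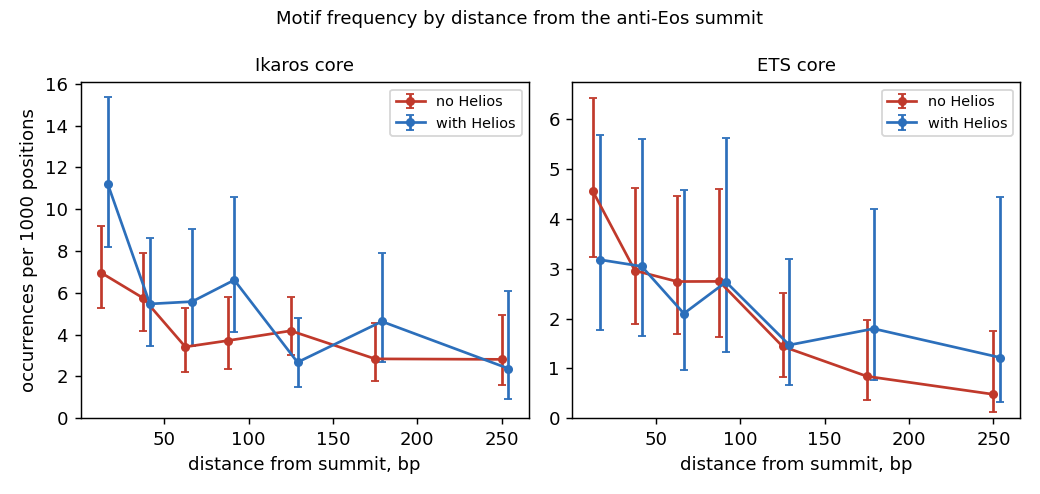
Occurrences of the Ikaros core (left) and the ETS core (right) per 1000 positions against distance from the anti-Eos summit in bp, with 95% Wilson intervals, for near-end peaks without Helios (red) and shared sites (blue). In the red series the Ikaros core goes from 6.96 within 25 bp to 2.84 at 150 to 200 bp, and the ETS core from 4.56 to 0.84.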

How the data were processed

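For each peak the authors deposited a ratio (fold over background), a p-value and a q-value as -log10, a score derived from the q-value, and the distance of the summit from the start of the peak. The submitters' processing notes name deepTools 3.5.1, SAMtools 1.17, Picard, BWA 0.7.1 and Cutadapt 4.4 and the builds GRCm38.p6 and mm10. Which peak caller, settings and control were used is not given in these sources. Peaks were listed separately for each library. Coordinates are 1-based on GRCm38.

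The members and lists were chosen with earlier results of these data known. Summits were assigned to the nearest end of 21887 protein-coding genes of RefSeq GRCm38.p6. Strand and promoter windows came from the RefSeq promoter table, which held 17492 of these genes (79.9%). For chromosome 18, where 5 of the 304 summits lay, the table as used here held no windows. The counts of all windows therefore leave that chromosome out. Where a summit fell in several windows, that with the nearest start was taken. Fragments per summit were found as the whole number that gives the deposited fold and p-value when 1 is added to fragments and background for the fold and the p-value is an upper Poisson tail, with a match (relative tolerance 0.0001) for 100% of anti-Eos peaks. The formula itself is inferred, not stated by a source. Intervals cover counting error only, and the read depth of the libraries is unknown.

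Shares were compared with Fisher's exact test (two-sided, SciPy 1.17.1) over 14 features, of which the 4 position features are reported without a test because the rule used positions, with Benjamini-Hochberg adjustment and a threshold of 0.05, and have 95% Wilson and Newcombe intervals. Named genes were the 15 highest folds, the lowest -log10 q, places beside each limit, members of the T cell, mRNA decay, chromatin, Integrator and ribosomal lists and genes with several peaks. Others were chosen after their values were seen. Some genes that the rule names are not reported here. Code was tested on simulated data. The 10 alternatives changed the limits, the use of summits, the -log10 q threshold or the peaks with over 3 control fragments of local background. Adjusting over the 10 sequence features alone was added after seeing the data.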

Additional observations from a re-analysis of the deposited data

How the results depend on the processing

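The number of peaks ranged from 223 to 347 and the number of genes from 213 to 325 over the 10 alternatives, against 304 and 291. The share within 100 bp of a gene end ranged from 35.7% to 47.9%, and the highest value, 47.9%, came with gene ends within 500 bp, which by construction drops farther summits. Of 100 recomputed differences in promoter sequence, 0 passed (Fisher's exact test, lowest adjusted p = 0.122). In the main comparison 0 of 10 passed and 1, the CpG share, had an unadjusted p below 0.05. The CpG difference ranged from -16.1 to -7.41 points, with unadjusted Fisher's exact p of 0.0119 to 0.254. In 7 cases a difference changed sign. The share with another anti-Eos summit within 10 kb became lower than in shared sites with a Helios limit of 1000 bp (-10.96 points) or with peak overlap (-0.95 points); the cause was not tested. The E-box difference became -1.08, -0.93 and -1.90 points with limits of 50, 250 and 1000 bp and -0.93 with peak overlap, and that of CCGGAA -0.48 with 50 bp. Of 300 recomputed list counts, 23 moved by over 1.5 times, all from counts of at most 7 genes. When peaks of both lists had to reach a -log10 q of 5, Ikzf2 no longer counted and Treg core genes fell to 1, and effector genes to 1, and with gene ends within 500 bp T cell transcription factors fell to 3. With 1 library per group no replicate could be left out. No paired analysis was possible because each group holds 1 library. Few fragments per peak limit every fold, and peaks below the authors' threshold could not be seen.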
